A study of Homo sapiens with 6 samples.

Results

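Zinc transporters and metallothioneins were followed in the mRNA of MDA-MB-453, an established human breast cancer cell line. The members were all rows of the count table whose gene name was SLC30A or SLC39A followed by a number, MT1 followed by a letter from A to H, M or X, or MT2A. This rule uses names alone and found 29 of the 33451 genes in the table, of which 13 were SLC39A genes, 9 were SLC30A genes and 7 were metallothioneins. SLC30A2, SLC39A12, MT1H and MT1M have no row in it. The experiment group (EG) was cultured for 5 days with 100 nM 25(OH)D, the main vitamin D metabolite circulating in blood, and the control group (CG) received the alcohol solvent alone. Each group had 3 libraries, all from this single cell line, so the comparison is of EG with CG within that line. The methods of the study call the replicates biological, and no source used here says whether each library came from its own culture, so the p-values measure the spread between these libraries.

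Cells hold almost all of their zinc bound to protein, and the free ion is kept scarce by transporters and buffers. SLC39A proteins, also called ZIP, carry zinc into the cytosol from outside the cell or out of organelles. SLC30A proteins, also called ZnT, carry it the opposite way, out of the cell or into organelles. Metallothioneins are small cysteine-rich proteins that bind zinc, copper and cadmium in the cytosol. When free zinc rises, the zinc-sensing transcription factor MTF1 is known to bind metal response elements (MREs) and switch on metallothionein genes and the exporter gene SLC30A1.

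The libraries held between 33268860 and 40928176 counts, and a count of 3 was worth 0.0733 to 0.0902 CPM, which are counts scaled to a library size common to all libraries. Members took 0.0941% to 0.0981% of the counts in CG and 0.136% to 0.138% in EG. Mitochondrial genes took 7.85% to 7.99% in CG and 8.89% to 9.24% in EG, and the part of this shift in the values of the members was not tested. Of the markers fixed for this cell line, ERBB2, FGFR4, FOXA1, GATA3, KRT8, KRT18 and KRT19 lay between 77.5 and 1869 CPM, while ESR1 and PGR stayed at or below 0.208 CPM. Mean CPM was lower in EG than in CG for GATA3 (151 against 262), FOXA1 (84.6 against 116) and KRT19 (596 against 790). It was higher in EG for ERBB2 (408 against 349), KRT8 (1844.5 against 1674) and KRT18 (577 against 537), and the groups of FGFR4 overlapped. The part of these shifts in the values of the members was not tested. No leukocyte marker exceeded 0.171 CPM and no endothelial marker exceeded 0.368 CPM. The 3 fibroblast markers summed to 36.5 to 38.8 CPM in CG and 32.0 to 34.6 CPM in EG, nearly all of it COL1A1, with COL1A2 and PDGFRB at or below 0.435 CPM, and the part of this difference was not tested. In such bulk RNA, fewer cells expressing a gene and less RNA per cell cannot be told apart.

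Zinc genes were mostly higher after 25(OH)D. MT2A rose 2.57-fold from an already high level, SLC30A8 rose 14.7-fold from a very low level and SLC39A11 rose 2.00-fold, whereas SLC39A14 and SLC30A4 fell. The low-count filter left 21 of the 29 members, which were tested with edgeR's quasi-likelihood test and Benjamini-Hochberg adjustment over all 18183 genes passing the filter. A member was called higher or lower at an adjusted p under 0.05. By this rule 12 members were higher, 2 were lower and 7 were not called. Among all genes tested 33.8% were called, 17.3% higher and 16.5% lower, so the 66.7% of tested members called stood above the background share. The groups did not overlap in 14 of the 21 members (66.7%), against 45.7% of all genes tested. The median log2 fold change of the tested members was 0.19, against -0.01 over all genes tested, with 17 members above 0 and 4 below. MT2A, MT1F and SLC30A8 passed the limits drawn by the study, where the log2 fold change exceeds 1 in either direction with p under 0.05 before adjustment, which 6.65% of all genes tested passed. SLC39A11 lay at that limit with 0.998. It was past the limit with RLE size factors, DESeq2, no low-count filter or the replicate block (1.001 to 1.005). The same held without CG replicate 2 (1.10), EG replicate 2 (1.04) or EG replicate 3 (1.01). SLC39A11 was within the limit with library sizes alone (0.954) and with limma (0.649 and 0.915). It was also within it without CG replicate 1 (0.940), CG replicate 3 (0.963) or EG replicate 1 (0.952). MT1F was within the limit without CG replicate 3 (0.93) or EG replicate 2 (0.89), and with limma (0.27 and 0.86). SLC30A8 was within it only with limma on log2(RPKM + 1) values (0.52). SLC30A8 passed the low-count filter through its EG libraries alone, so its presence among the genes tested already required a difference.

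**Figure D1:**
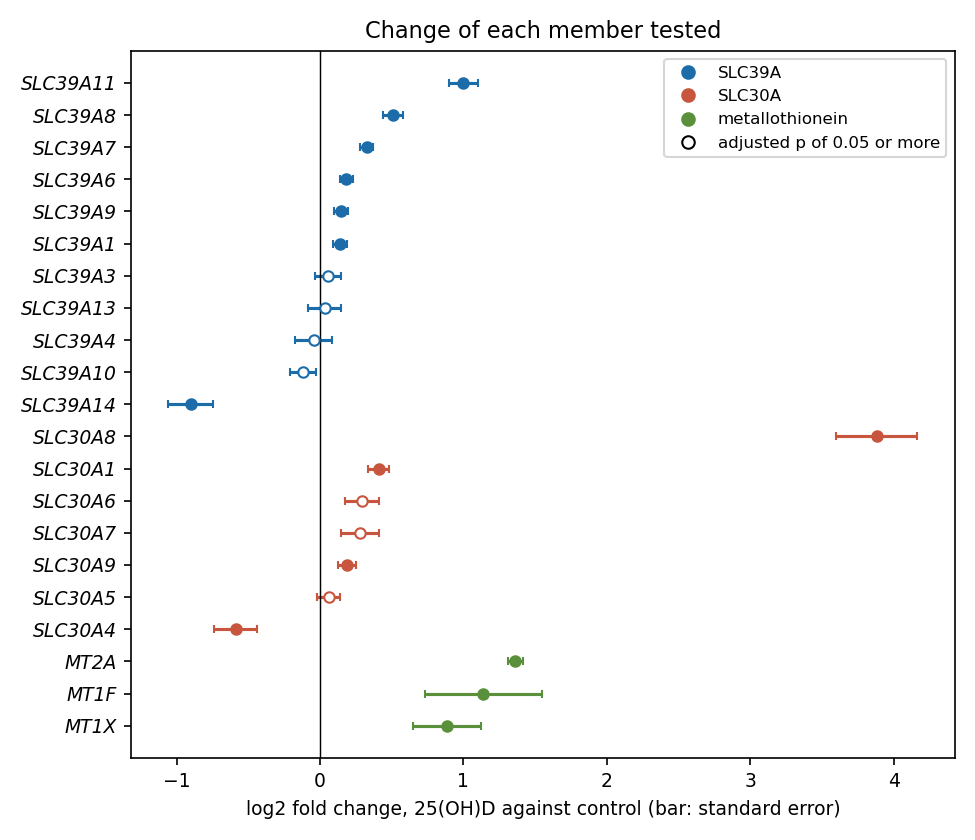
Log2 fold change of EG against CG on the horizontal axis for each of the 21 members tested, with bars of 1 standard error, coloured by family, and open circles for the 7 members not called. SLC30A8 stands far to the right at 3.88, the 3 metallothioneins lie between 0.89 and 1.36, and SLC39A14 and SLC30A4 are the called members left of 0.

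The metallothioneins are coded in a cluster on chromosome 16. MT2A (chromosome 16, 56608199 to 56609497, plus strand of GRCh38) and MT1X (56682424 to 56684196, plus strand) lie at its ends among the members, with starts 74225 bases apart. Their coding sequences from GENCODE 29 are shown because they let a reader see how alike the genes are that reads had to be assigned to. Both are of the commonest coding length in the family, 186 bases, which 7 of its 17 coding transcripts have, 1 for each gene. Each codes for 61 amino acids and holds 20 cysteine codons. Capitals mark the 14 bases at which the pair differ, which leaves 92.5% identical.
MT2A: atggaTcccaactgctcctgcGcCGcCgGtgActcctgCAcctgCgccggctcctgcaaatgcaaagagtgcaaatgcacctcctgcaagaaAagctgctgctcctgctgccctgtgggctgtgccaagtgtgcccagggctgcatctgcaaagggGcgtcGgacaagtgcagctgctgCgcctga
MT1X: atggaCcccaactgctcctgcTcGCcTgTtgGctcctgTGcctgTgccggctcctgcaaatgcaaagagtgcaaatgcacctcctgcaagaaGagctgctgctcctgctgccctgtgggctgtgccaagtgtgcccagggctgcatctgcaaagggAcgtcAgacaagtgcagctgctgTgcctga
Most of the differences lie near the start, and the middle of the coding sequence is nearly the same in both. MT2A and MT1G differ at only 9 coding bases. Over whole transcripts the genes are easier to tell apart, since 3.02% of the 50-base windows of MT2A, 18.3% of those of MT1X and 1.22% of those of MT1F also occur in a transcript of another gene.

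MT2A, the metallothionein made in most tissues, was the most abundant member by length-scaled level. It had 178, 191 and 213 CPM in the CG libraries and 504, 492 and 502 CPM in the EG libraries. Every EG library was far above every CG library, and the EG libraries were closely grouped. The mean went from 194 ± 17.6 CPM to 499 ± 6.29 CPM (SD, n = 3 each), and the log2 fold change was 1.36 (SE 0.0538, edgeR adjusted p = 1.04e-10). In RPKM, the deposited counts scaled to gene length and library total, MT2A moved from 152 ± 13.1 to 378 ± 2.44 (SD, n = 3 each), from rank 264 to rank 92 among all genes in the table.

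MT1X and MT1F, relatives of MT2A in the cluster, were read far less often. MT1X had 40, 42 and 33 counts in CG and 70, 64 and 60 counts in EG, so the groups did not overlap. Its level was 0.989 ± 0.110 CPM in CG and 1.83 ± 0.164 CPM in EG (SD, n = 3 each), and the log2 fold change was 0.89 (SE 0.238, edgeR adjusted p = 0.00983). MT1X shares 321 of its exon bases (18.1%) with RP11-343H19.2 on the same strand, whose log2 fold change was 0.69 without a call (adjusted p = 0.0834 from edgeR), so its value is uncertain. MT1F (chromosome 16, 56657694 to 56660698, plus strand) had 14, 24 and 10 counts in CG and 26, 46 and 26 counts in EG. The highest CG library lay only just below the lowest EG library. Its log2 fold change was 1.14 (SE 0.406, edgeR adjusted p = 0.0437), from 0.414 ± 0.194 to 0.911 ± 0.249 CPM (SD, n = 3 each). The call of MT1F ended without CG replicate 1 (adjusted p = 0.123 from edgeR), CG replicate 3 (0.133), EG replicate 1 (0.0550), EG replicate 2 (0.186) or EG replicate 3 (0.0539), and with library sizes alone in place of TMM scaling (0.0510). Limma gave no call for MT1F either, on log2(RPKM + 1) values (adjusted p = 0.0605 from limma) or log2(RPKM + 0.1) values (0.0646).

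The other 4 metallothioneins did not pass the low-count filter. MT1E had 4, 6 and 6 counts in CG and 7, 14 and 9 in EG, without overlap, and the ratio of the summed counts scaled to depth was 1.99 (95% exact interval 1.05 to 3.91, for counting error only). Fitted without the filter, its adjusted p was 0.464 from edgeR. MT1A and MT1B had a single count each, in a CG library, and MT1G had 2 counts in a CG library. Expression of these last 3 genes was not detectable at this depth in EG, where each library allows up to 3 counts beside a count of 0.

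**Figure D2:**
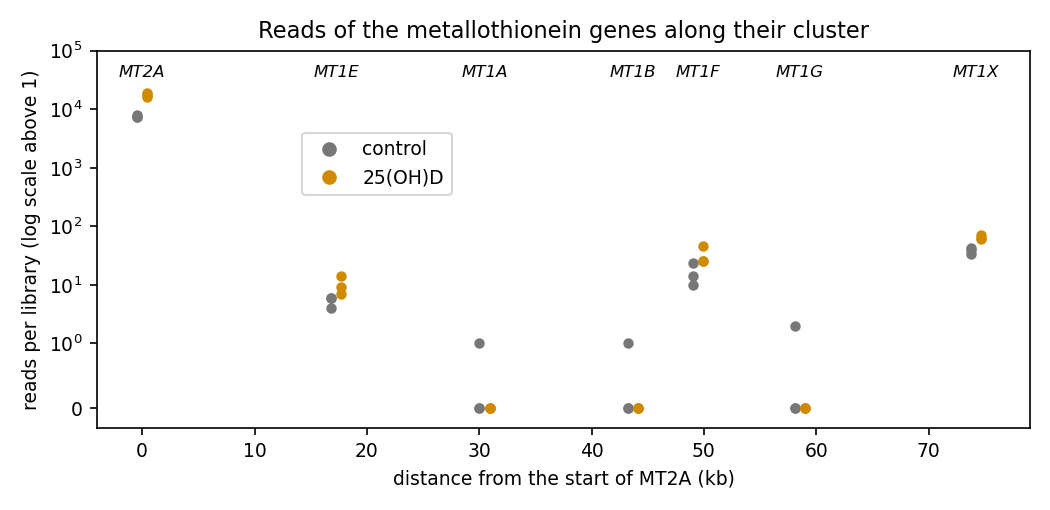
Counts per library of the 7 metallothionein genes, on a scale that is logarithmic above 1, against the distance of each gene's start from that of MT2A in kilobases, with CG libraries in grey and EG libraries in orange. MT2A stands far above the others, with 7242 to 7843 counts in CG and 16342 to 18912 in EG, and MT1E, MT1F and MT1X also lie higher in EG.

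The bases before the start of MT2A, MT1X and SLC30A1 are shown because these genes rose and are textbook targets of MTF1. Since they were picked as known targets, their core counts are a description only. Whether MTF1 or zinc had a part in their rise was not tested. The sequences are the 250 bases before the RefSeq start of each gene (GRCh38.p14), read 5′ to 3′ on the gene's own strand. Capitals mark the MRE core, searched as TGCACNC or TGCGCNC on both strands with overlaps allowed. The window of MT2A is chr16:56608334-56608583 on the plus strand, that of MT1X is chr16:56682220-56682469 on the plus strand and that of SLC30A1 is chr1:211579162-211579411 on the minus strand. The gene models used for counting start inside or before the windows of MT2A and MT1X, so part of each window can be transcribed.
MT2A: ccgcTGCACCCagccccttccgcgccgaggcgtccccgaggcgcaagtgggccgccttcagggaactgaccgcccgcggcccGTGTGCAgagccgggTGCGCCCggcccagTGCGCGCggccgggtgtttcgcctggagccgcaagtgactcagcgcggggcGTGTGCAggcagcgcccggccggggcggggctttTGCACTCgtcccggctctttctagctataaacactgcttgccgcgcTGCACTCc
MT1X: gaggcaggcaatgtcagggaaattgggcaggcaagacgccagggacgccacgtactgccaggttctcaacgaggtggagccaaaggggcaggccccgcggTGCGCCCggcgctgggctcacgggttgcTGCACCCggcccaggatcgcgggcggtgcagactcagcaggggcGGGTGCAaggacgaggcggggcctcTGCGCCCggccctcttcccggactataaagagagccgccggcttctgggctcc
SLC30A1: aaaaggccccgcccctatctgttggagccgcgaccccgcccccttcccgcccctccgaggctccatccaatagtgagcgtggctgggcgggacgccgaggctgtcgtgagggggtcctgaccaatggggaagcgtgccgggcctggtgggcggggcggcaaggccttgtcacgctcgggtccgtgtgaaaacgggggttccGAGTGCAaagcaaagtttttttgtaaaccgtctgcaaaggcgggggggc
The shown windows hold 7 cores in MT2A, 4 in MT1X and 1 in SLC30A1. With the 50 bases after the start included, MT2A has 8, MT1X 4 and SLC30A1 2. Of all 35116 such windows of 300 bases, 29.6% hold at least 1 core, 8.6% at least 2, 0.601% at least 4 and 0.0199% at least 8. No window was at hand for SLC30A8, SLC39A14, MT1F, MT1E, MT1A, MT1G or SLC39A4, so the motif searches do not cover these genes. A window was at hand for 22 of the 29 members, some of which had more than 1. Of these 31 windows, 15 held a core, which is the count to set beside the share of all windows. Counted by member, 14 of the 22 had a core in at least 1 window. MT1B, whose transcript was hardly detected, has 3 cores, and SLC39A11, which rose, has none. The direct repeat known as DR3, the classic binding motif of the vitamin D receptor with its RXR partner, was found in none of the 31 member windows and in 0.251% of all windows, which says only that the motif is not in these windows.

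SLC30A8, the zinc transporter known for loading insulin granules in pancreatic beta cells, had the largest fold change of the members tested. The gene (chromosome 8, 116950273 to 117176714, plus strand of GRCh38) had 10, 8 and 6 counts in CG and 118, 103 and 105 counts in EG. All EG libraries lay far above all CG libraries. Its level went from 0.205 ± 0.0390 CPM to 3.09 ± 0.359 CPM (SD, n = 3 each), and the log2 fold change was 3.88 (SE 0.284, edgeR adjusted p = 9.47e-08). Its mean RPKM of 0.483 in EG was still below those of SLC30A9, SLC30A5 and SLC30A1.

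SLC30A1 (chromosome 1, 211571568 to 211578742, minus strand), the exporter in the plasma membrane, also rose. Its libraries had 18.8, 18.3 and 17.5 CPM in CG and 25.7, 22.8 and 24.0 CPM in EG, without overlap. The log2 fold change was 0.41 (SE 0.0730, edgeR adjusted p = 5.17e-04), a 1.33-fold rise. SLC30A9 (chromosome 4, 41990472 to 42090457, plus strand), a mitochondrial zinc carrier, was the most abundant SLC30A member, at 9.85 ± 0.707 RPKM in CG and 10.9 ± 0.872 RPKM in EG (SD, n = 3 each). It had 74.7, 70.5 and 65.2 CPM in CG and 79.4, 86.1 and 74.4 CPM in EG, and the groups overlapped. Its log2 fold change was 0.19 (SE 0.0632, edgeR adjusted p = 0.0331). The call of SLC30A9 ended without CG replicate 2 (adjusted p = 0.0845 from edgeR), CG replicate 3 (0.111), EG replicate 1 (0.0689) or EG replicate 2 (0.174), and with library sizes alone (0.107). It was also lost on log2(RPKM + 1) values (adjusted p = 0.231 from limma) and on log2(RPKM + 0.1) values (0.277).

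SLC30A4 (chromosome 15, 45479611 to 45522807, minus strand), a carrier into endosomes and secretory vesicles that the mammary gland uses, was the only SLC30A member called lower. It had 4.01, 3.94 and 4.18 CPM in CG and 2.56, 2.86 and 2.64 CPM in EG, so every EG library was below every CG library. The log2 fold change was -0.59 (SE 0.152, edgeR adjusted p = 0.00771). SLC30A4 shares 349 exon bases (4.3%) with genes on the opposite strand. SLC30A5, SLC30A6 and SLC30A7, which supply zinc to enzymes of the secretory pathway, were not called. Their log2 fold changes were 0.06 (standard error 0.0803), 0.29 (standard error 0.118) and 0.28 (standard error 0.132). The groups of SLC30A6 did not overlap, at 4.92 to 5.70 CPM in CG and 6.37 to 6.74 CPM in EG (adjusted p = 0.0729 from edgeR). SLC30A7 was called higher only when CG replicate 2 was left out (adjusted p = 0.0224 from edgeR), against 0.127 with all libraries.

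A pair of SLC30A members did not pass the low-count filter. SLC30A10, known as a manganese exporter, had 2, 0 and 1 counts in CG and 5, 6 and 5 counts in EG, a depth-scaled ratio of 5.67 (95% exact interval 1.62 to 30.3, for counting error only). The groups did not overlap, but without the filter its adjusted p was 0.283 from edgeR. SLC30A3, which loads zinc into synaptic vesicles, had at most 4 counts in any library.

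**Figure D3:**
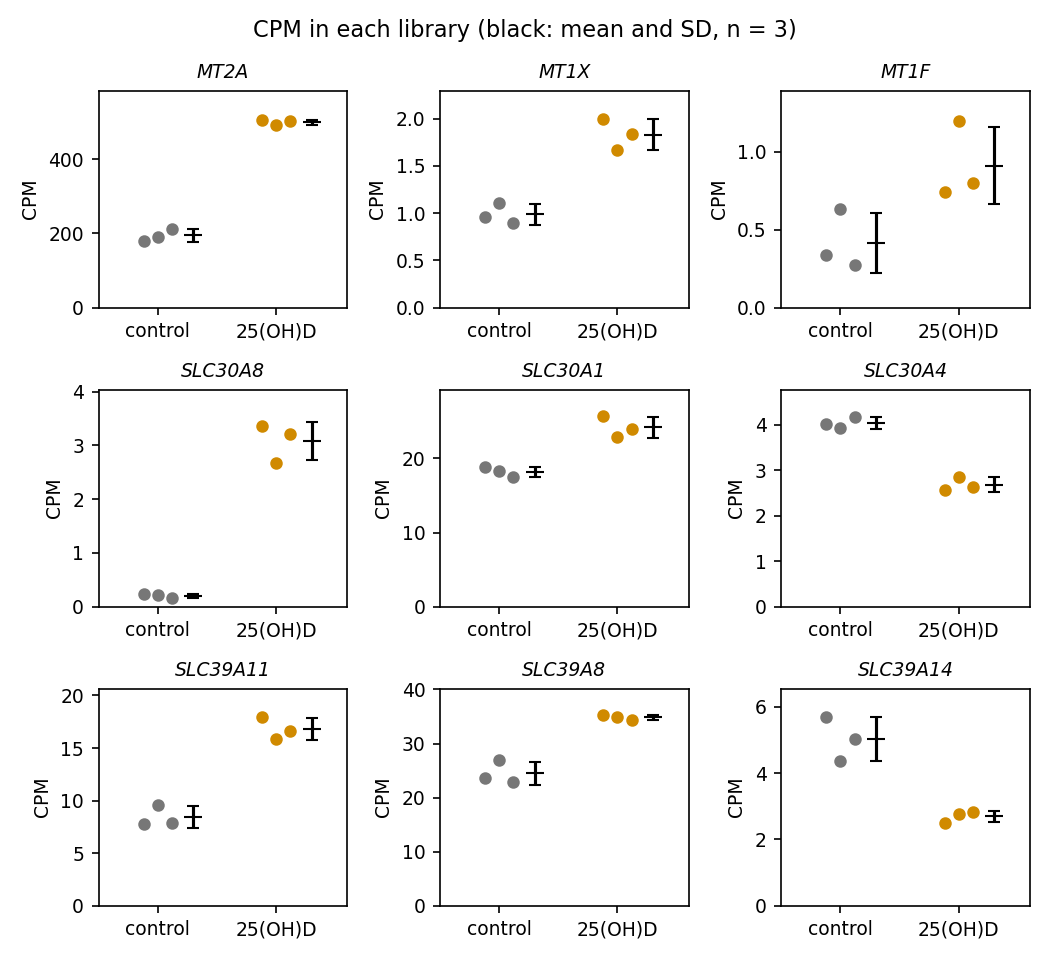
CPM on the vertical axes, each starting at 0, for 9 called members in the 3 CG (grey) and 3 EG (orange) libraries, with the mean and SD in black. The groups do not overlap in any panel, with SLC30A4 and SLC39A14 lower in EG and the other 7 members higher.

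Among the importers, SLC39A11 and SLC39A8 rose most. SLC39A11 (chromosome 17, 72645949 to 73092712, minus strand of GRCh38), a ZIP protein placed mainly in inner membranes, had 7.73, 9.60 and 7.90 CPM in CG and 17.9, 15.8 and 16.6 CPM in EG. No CG library came near an EG library. Its log2 fold change was 0.998 (SE 0.101, edgeR adjusted p = 2.69e-06). SLC39A8 (chromosome 4, 102251041 to 102431258, minus strand), which carries manganese and cadmium as well as zinc, had 23.7, 26.9 and 22.9 CPM in CG and 35.2, 34.8 and 34.4 CPM in EG. The groups were again apart, and the log2 fold change was 0.51 (SE 0.0700, edgeR adjusted p = 5.52e-05).

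SLC39A7 (chromosome 6, 33200445 to 33204439, plus strand), which releases zinc from the endoplasmic reticulum, was the most abundant transporter, at 86.4 ± 3.16 RPKM in CG and 105 ± 4.17 RPKM in EG (SD, n = 3 each). Its libraries had 235, 239 and 254 CPM in CG and 293, 300.5 and 318 CPM in EG. They did not overlap, with a log2 fold change of 0.32 (SE 0.0434, edgeR adjusted p = 4.18e-05). SLC39A7 shares 244 exon bases (8.6%) with RXRB on the opposite strand, and whether the counting used strand is not given in the sources used here. SLC39A6 (chromosome 18, 36108532 to 36129385, minus strand), known as LIV-1 and as an estrogen-regulated gene of breast cancer, had 118, 120 and 113 CPM in CG and 137, 136 and 127 CPM in EG. All EG libraries were above all CG libraries, by a log2 fold change of 0.18 (SE 0.0458, edgeR adjusted p = 0.00619). This call was lost on log2(RPKM + 1) values (adjusted p = 0.0978 from limma) and on log2(RPKM + 0.1) values (0.150).

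SLC39A1 and SLC39A9 rose by small amounts, in the same direction whichever library was left out, although the call did not hold each time. SLC39A1 (chromosome 1, 153959099 to 153968184, minus strand), a widely expressed importer of the plasma membrane, had 75.6 to 82.8 CPM in CG and 83.8 to 89.7 CPM in EG, without overlap, and a log2 fold change of 0.14 (SE 0.0504, edgeR adjusted p = 0.0440). Its call ended without CG replicate 1 (adjusted p = 0.0997 from edgeR), CG replicate 2 (0.183), EG replicate 1 (0.138) or EG replicate 3 (0.0592), with library sizes alone (0.146), and without the low-count filter (0.0503). SLC39A1 was not called on log2(RPKM + 1) values (adjusted p = 0.192 from limma) or log2(RPKM + 0.1) values (0.263). With each library left out, its log2 fold change stayed between 0.11 and 0.18. SLC39A9 (chromosome 14, 69398015 to 69462388, plus strand), found in the Golgi and plasma membrane, had 96.2 to 103 CPM in CG and 106 to 117 CPM in EG, without overlap, and a log2 fold change of 0.15 (SE 0.0494, edgeR adjusted p = 0.0321). Its call ended without CG replicate 1 (adjusted p = 0.108 from edgeR), CG replicate 3 (0.0557) or EG replicate 2 (0.168), and with library sizes alone (0.133), while its log2 fold change stayed between 0.10 and 0.18 with each library left out. Nor was SLC39A9 called on log2(RPKM + 1) values (adjusted p = 0.240 from limma) or log2(RPKM + 0.1) values (0.299). SLC39A1 shares 8.3% of its exon bases with CREB3L4, and SLC39A9 shares 5.2% with ERH, both on the opposite strand.

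SLC39A14 (chromosome 8, 22367249 to 22434129, plus strand), which carries iron and manganese as well as zinc, was the only importer called lower. It had 5.69, 4.36 and 5.03 CPM in CG and 2.50, 2.76 and 2.82 CPM in EG. Every EG library was below every CG library, and the log2 fold change was -0.90 (SE 0.156, edgeR adjusted p = 4.15e-04). SLC39A8, its closest relative by transported metals, moved the opposite way. SLC39A3, SLC39A4, SLC39A10 and SLC39A13 were not called. Their log2 fold changes lay between -0.12 (SLC39A10, standard error 0.0900) and 0.06 (SLC39A3, standard error 0.0901), and their groups overlapped. SLC39A5 had at most 7 counts in any library and SLC39A2 at most 2, and neither passed the filter.

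**Figure D4:**
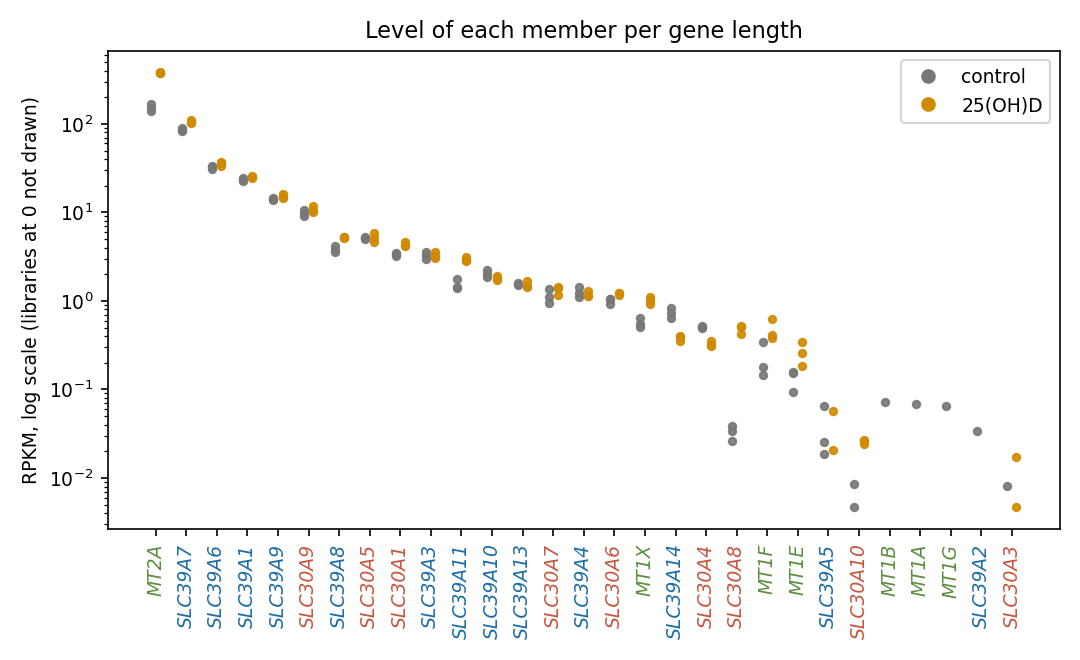
RPKM of each member in every library on a log axis, in order of level, with CG in grey, EG in orange and libraries at 0 not drawn. MT2A stands above all transporters, SLC39A7, SLC39A6, SLC39A1 and SLC39A9 follow, and SLC30A9 is the first SLC30A member in the order.

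Per gene length, importer transcripts far outweighed exporter transcripts in both groups. The RPKM values of the 13 SLC39A members summed to 168, 171 and 174 in CG and to 195, 199 and 199 in EG, without overlap. Those of the 9 SLC30A members summed to 21.7, 21.4 and 20.01 in CG and to 23.4, 24.5 and 23.4 in EG, also without overlap. The SLC39A sum was 1.16-fold higher in EG and the SLC30A sum 1.13-fold higher. SLC39A7 alone made up 50.6% of the SLC39A sum in CG and 53.1% in EG, and SLC30A9 made up 46.8% and 45.8% of the SLC30A sum.

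The ratio of import to export transcripts overlapped between the groups. The SLC39A sum divided by the SLC30A sum was 7.74, 7.99 and 8.68 in CG and 8.32, 8.10 and 8.51 in EG. Its means were 8.14 ± 0.487 in CG and 8.31 ± 0.205 in EG (SD, n = 3 each). The ratio in EG was 1.02 times that in CG, and it was 0.952 times that in CG once SLC39A7 and SLC30A9 were left out of the sums. These sums and their ratio are a description and were not tested. The metallothionein sum went from 153 ± 13.1 to 380 ± 2.32 RPKM (SD, n = 3 each), 2.49-fold higher in EG, and MT2A was 99.3% of it in CG and 99.5% in EG. The sums treat every SLC39A member as an importer and every SLC30A member as an exporter of the cytosol, whatever membrane it sits in.

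**Figure D5:**
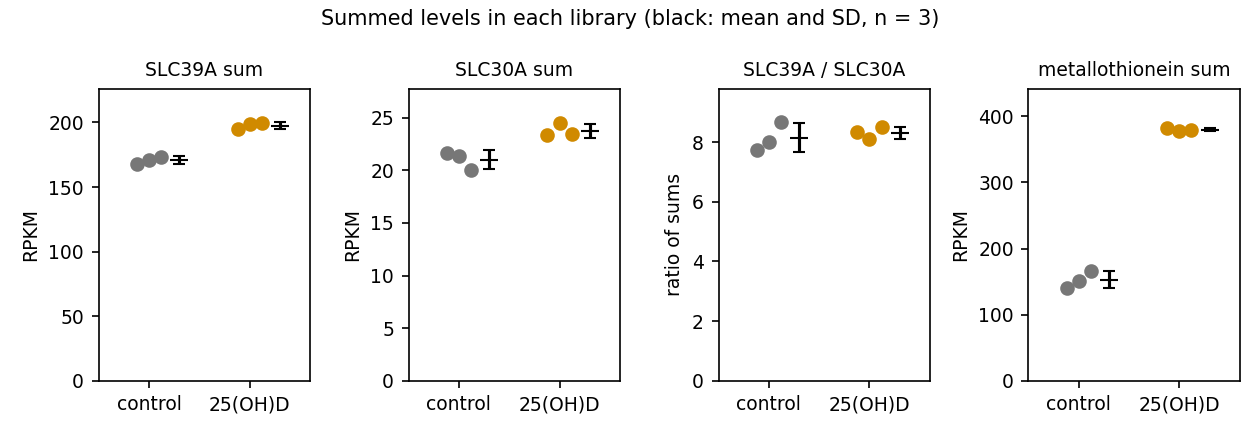
Summed RPKM of the SLC39A members, of the SLC30A members and of the metallothioneins, and the ratio of the SLC39A sum to the SLC30A sum, on axes that start at 0, in each CG (grey) and EG (orange) library with the mean and SD in black. All 3 sums are higher in every EG library, and the ratio overlaps between the groups, at 7.74 to 8.68 in CG and 8.10 to 8.51 in EG.

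Of 20 further genes listed for zinc handling, 11 had a row and 10 passed the filter, of which 5 were called higher and 1 lower. The share called was 60%, against 33.8% of all genes tested, and 4 of the 5 higher calls were CBWD genes, near-identical copies that can share reads. MTF1 had 54.2, 58.6 and 51.9 CPM in CG and 91.2, 87.5 and 86.3 CPM in EG. Its groups did not overlap, and the log2 fold change was 0.69 (SE 0.0546, edgeR adjusted p = 2.31e-07). GPR39, a receptor on the cell surface that responds to zinc, had 4.64, 6.11 and 6.14 CPM in CG and 2.16, 3.28 and 1.66 CPM in EG. It fell in every EG library, by a log2 fold change of -1.23 (SE 0.215, edgeR adjusted p = 4.29e-04). The other called genes were CBWD1, CBWD2, CBWD3 and CBWD5, zinc metallochaperone genes with log2 fold changes of 0.28 to 0.48. Since reads can be split between these copies, their values are uncertain. The median log2 fold change of the 10 genes was 0.18.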

How the data were processed

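The mRNA of 3 EG and 3 CG libraries of MDA-MB-453 was made with a stranded kit and sequenced in pairs. The authors deposited whole-number read counts per gene, without normalization. The authors also deposited RPKM values, which equalled each count divided by gene length and library total (largest relative difference 2.23e-13). The submitters' processing notes name Trimmomatic 0.36, featureCounts of Subread 1.5.1, edgeR 3.12.1 and GRCh38. The aligner, the annotation release and the strand setting are not given in the sources used here. Exon positions of the members were taken from the deposited count table, and their exon bases equalled the gene lengths given there.

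Counts were tested in R 4.3.3 with edgeR 4.0.16, using TMM scaling, the low-count filter of the package (minimum count 10) and the quasi-likelihood test of EG against CG without covariates. CPM values use TMM-scaled library sizes. The biological coefficient of variation was 0.0788. Fits were tested on simulated data. Intervals on summed counts are exact, at 95%, and like the floor of 3 counts cover counting error only. Replicates differed by more than sampling noise (chi-square per gene 4.01 to 12.1), so none was a copy of another differing by counting error alone. This does not show whether they came from separate cultures. Limma 3.58.1 and DESeq2 1.42.0 were alternatives, with other scalings, no filter, the replicate number as a block and each library left out in turn. Summed levels and their ratio were given without a test.

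The members, the gene lists and the tests were chosen with earlier results of these data known. Full statistics were given for every member with an adjusted p under 0.05 and for the most abundant member of each family, values in every library for every metallothionein past the filter, and ranges or counts for the rest. From the zinc and copper lists, called genes and MTF1 were named. Some genes covered by these lists or lying near a member are not reported here. Genes named near a member in the closing section were chosen after their values were seen. Promoter windows were taken from RefSeq and coding sequences from GENCODE 29. Figures and summaries used Python 3.11.15 with pandas 2.3.3, scipy 1.17.1, numpy 2.4.6 and matplotlib 3.10.9.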

Additional observations from a re-analysis of the deposited data

How the results depend on the processing

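Of the 14 called members, 9 kept their call and direction in all 13 alternatives, 5 lost the call in at least 1 and none changed direction. The lost calls were those of SLC30A9, SLC39A1, SLC39A6, SLC39A9 and MT1F. The count of 12 members called higher became 7 with limma on log2(RPKM + 1), 7 with limma on log2(RPKM + 0.1) and 3 at the limits of the study, which leave 0 of the 2 members called lower because neither fell by more than 1 on the log2 scale. It was 8 with library sizes alone, where the median log2 fold change of all genes was -0.06 in place of -0.01, and 11 without MT1F, whose libraries all had fewer than 50 counts, a setting chosen after seeing the data. Leaving out each library in turn gave 9 to 11 members higher and 2 to 2 lower. The share of all genes called is given here only for the main fit and the limits of the study. Counts of members in the other settings therefore have no background share beside them. With the replicate block, 12 members were higher and 2 lower, but the numbers did not pair the libraries, since the deviations of same-numbered libraries correlated at -0.0721, -0.0120 and -0.0460. The ratio of the summed SLC39A to the summed SLC30A level was 1.02 times as high in EG as in CG, 0.952 times without SLC39A7 and SLC30A9, and 0.997 to 1.06 times with each library left out. The cause of these differences was not tested. Depth limits the 8 members below the filter, whose highest count in a library was 14.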

Other observations

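Genes of copper handling, the other main metal bound by metallothioneins, were compared in the same way. All 12 listed genes, which cover uptake, pumping and delivery of copper, passed the low-count filter, and 0 were called, against 33.8% of all genes tested. The groups did not overlap in 2 of them (16.7%), against 45.7% of all genes tested. With edgeR's quasi-likelihood test 0 also had an unadjusted p under 0.05, and DESeq2 called 0 with 0 at an unadjusted p under 0.05. Their log2 fold changes lay between -0.17 and 0.36, with a median of 0.05.

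Genes near the members that moved most did not all move with them. Among all genes tested, 33.8% were called, 17.3% higher and 16.5% lower. Whether the neighbours departed from that share was not tested. Of the 5 tested genes within 500000 bases of SLC30A8, 0 were called higher and 2 were called lower by edgeR. Those were RAD21, a cohesin subunit gene (log2 fold change -0.28), and RAD21-AS1 (-0.51), which lie near each other. Around MT2A, 12 tested genes other than members lay within that distance, of which 1 was called higher and 4 were called lower. Those called lower were GNAO1 (log2 fold change -1.46), CPNE2 (-1.01), HERPUD1 (-0.47) and NUDT21 (-0.32). Around SLC39A11, 7 genes were tested, 1 was called higher and 0 lower, with log2 fold changes between -0.17 and 0.29.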
